A study of Homo sapiens with 9 samples.

Results

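Long-chain fatty acids enter metabolism only after they have been joined to coenzyme A, a step called activation. The genes described here are 10 genes of that step and of the step that follows it, selected by symbol among the 26190 genes with values: SLC27A2, SLC27A1, SLC27A3, SLC27A5, ACSL1, ACSL3, ACSL4, ACSL5, ACSL6 and CPT1A. SLC27A2 was chosen because it was among the largest rises shared by both EZH2-edited lines, so its values against the unedited line are given as a description, with no test. The other 9 were chosen as its relatives or partners. The RNA was polyadenylated RNA from Jurkat, a long-established line of human leukaemic T cells. The groups were an EZH2-edited line made with CRISPR/Cas9 and labelled KO1, a second such line labelled KO2, and the unedited line labelled WT, with 3 libraries each from exponentially growing cultures that the submitters call biological triplicates. The labels do not say whether either edited line is a single clone, and each stands for 1 edited line, so a p-value here reflects variation among cultures of 1 line, not among independent edits.

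Values are FPKM, by definition fragments scaled by transcript length and by library size, so levels of different genes can be compared. How library size was set for this table is not known. A log2 fold change is a difference of group means of log2(FPKM + 1), written ± SE, and understates the change of weakly expressed genes. Changes were tested with limma in 1 fit of all 9 libraries, over the 11737 genes with at least 1 FPKM in 3 or more libraries, and a Benjamini-Hochberg adjusted p under 0.05 counted as a change. Of the 10 genes, 8 passed this filter, and SLC27A2 passed it only through the edited lines. The targeted gene EZH2, the methyltransferase of Polycomb repressive complex 2, stood at 107.6, 106.9 and 103.0 FPKM in KO1, 87.9, 89.9 and 90.7 FPKM in KO2 and 74.4, 77.6 and 79.5 FPKM in WT. A level over the whole transcript does not show whether the protein was lost and so does not check the labels. Per library, 11028 to 11415 genes reached 1 FPKM. Steps between low values put the relative depth of the libraries between 0.963 and 1.165 of WT replicate 3. The search covered only a limited range around equal depth, so a larger difference could not have been found. The depth in reads is unknown. All 12 T-lineage marker genes passed the filter, PTCRA only through WT. Their sums were 1395 to 1536.5 FPKM in KO1, 1623 to 1658 FPKM in KO2 and 1635 to 1736 FPKM in WT. Single markers differed more, with 3 rises and 9 falls in KO1 and 3 rises and 6 falls in KO2. That is 100% and 75% changed, beside 67.5% and 64.7% of all tested genes. PTCRA is counted among the falls in both lines, which its passing only through WT favoured. CD2 went in opposite directions, at 90.6 ± 3.59 FPKM in KO1, 4.38 ± 0.789 FPKM in KO2 and 35.8 ± 0.774 FPKM in WT. None of 15 hepatocyte markers passed it, and 4 of them, ALB, APOA2, APOC3 and SERPINA1, were listed at 0 in every library. Their sum was 0.743, 1.08 and 3.51 FPKM in KO1, 0.892 to 1.38 FPKM in KO2 and 0.566 to 1.12 FPKM in WT. KO1 replicate 3 stood apart, with FGA at 1.19, FGG at 0.477 and FGB at 0.454 FPKM, each of which was below 0.1 FPKM in all other libraries. The erythroid markers HBB and HBA2 were also highest in that library, at 1.08 and 0.377 FPKM. In the other libraries HBB was at most 0.173 FPKM and HBA2 was listed at 0. Of 8 adipocyte markers 2 passed, with sums of 4.73 to 5.61 FPKM in KO1, 5.50 to 7.15 FPKM in KO2 and 3.63 to 3.95 FPKM in WT, and LEP and FABP4 were listed at 0 throughout. The 2 that passed went different ways. The complement factor gene CFD rose to 4.05 ± 0.203 FPKM in KO1 and 5.11 ± 0.835 FPKM in KO2, against 2.17 ± 0.176 FPKM in WT (limma adjusted p = 0.000154 and 1.54e-05). LIPE stood at 0.915 ± 0.176 FPKM in KO1, 1.24 ± 0.226 FPKM in KO2 and 1.40 ± 0.166 FPKM in WT. It fell in KO1 (limma adjusted p = 0.0187) and did not pass in KO2 (adjusted p = 0.414). Of 16 B-cell, myeloid, erythroid, epithelial and fibroblast markers 2 passed, CD79A and COL1A1, the latter only through the edited lines. The sums were 51.9 to 60.5 FPKM in KO1, 21.0 to 23.9 FPKM in KO2 and 24.998 to 29.7 FPKM in WT. CD79A made up most of them, at 54.9 ± 5.52 FPKM in KO1, 21.0 ± 1.65 FPKM in KO2 and 27.5 ± 2.57 FPKM in WT. The part of any of these cell types in the results was not tested. In bulk RNA, fewer cells with a transcript and less of it per cell cannot be told apart.

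As background, the SLC27A genes encode fatty acid transport proteins, membrane enzymes that promote fatty acid uptake and activate long and very long chain fatty acids. The ACSL genes encode the long-chain acyl-CoA synthetases, isozymes that differ in their preferred fatty acids and in the membranes they sit on. CPT1A encodes the liver-type carnitine palmitoyltransferase of the outer mitochondrial membrane, which passes activated fatty acids on to carnitine and is a control point of mitochondrial oxidation. T cells draw on fatty acid oxidation and on lipid synthesis to different degrees in resting and dividing states.

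SLC27A2, also called FATP2, encodes a very long chain acyl-CoA synthetase known mainly from liver and kidney. It stood at 16.1, 16.7 and 20.2 FPKM in KO1, 11.5, 12.2 and 13.5 FPKM in KO2 and 0.633, 0.554 and 0.734 FPKM in WT. Every edited library was thus above 11 FPKM and every WT library below 1 FPKM. Its mean was 17.6 ± 2.23 FPKM in KO1, 12.4 ± 1.01 FPKM in KO2 and 0.640 ± 0.0904 FPKM in WT (SD, n = 3 each), which puts the KO1 mean at 27.6 times and the KO2 mean at 19.4 times that of WT. The log2 fold change was 3.50 in KO1 and 3.03 in KO2. With a pseudocount of 0.1 in place of 1 these values were 4.58 and 4.09. Ranked by the smaller of the 2 fold changes, SLC27A2 was number 11 among all tested genes, at 3.03, with IGF2BP2 just above it at 3.12 and EPHA3 just below it at 3.02. The comparison of the edited lines with each other was not used to choose SLC27A2, although it rests on the same edited libraries. There SLC27A2 was lower in KO2 than in KO1, by a log2 difference of -0.47 ± 0.09 (limma adjusted p = 0.00354), and the libraries of the edited lines did not overlap. KO1 replicate 3, the library with the highest hepatocyte markers, also had the highest SLC27A2. Without it the KO1 mean was 16.4 FPKM, the log2 fold change in KO1 was 3.41, and KO2 minus KO1 was -0.37 (adjusted p = 0.0112).

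**Figure D1:**
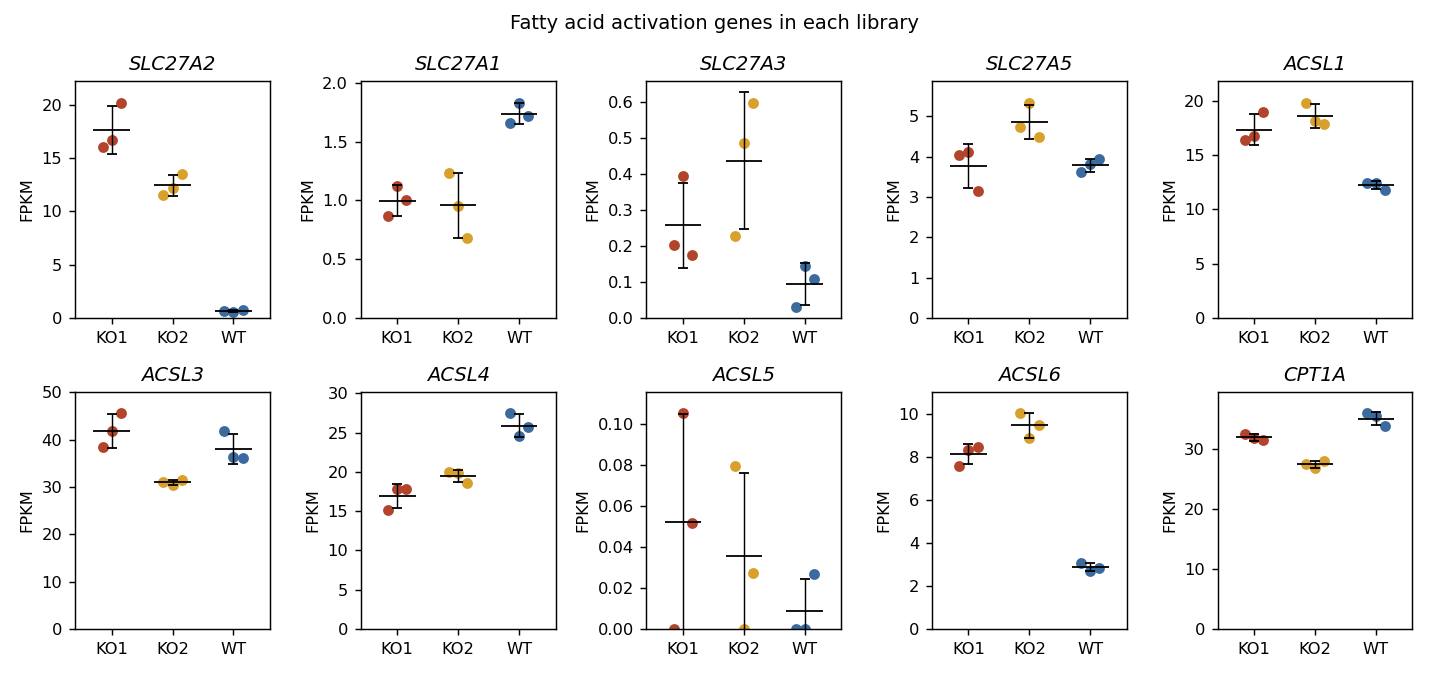
FPKM of the 10 genes (y axis, starting at 0, with its own range per gene) in KO1, KO2 and WT (x axis); points are libraries, horizontal lines means and bars the SD of 3 libraries, cut at 0. SLC27A2 lies above 11 FPKM in all 6 edited libraries and below 1 FPKM in WT, ACSL6 is higher and ACSL4 lower in both edited lines, and SLC27A3 and ACSL5 stay below 1 FPKM in every library.

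The promoter of SLC27A2 is shown beside those of SLC27A5, a relative that rose in KO2 only, and ACSL4, which fell in both lines. These were picked because the 3 differ most plainly in CpG content. Each is the RefSeq window from 250 bases before to 50 after the start on GRCh38.p14, 5′ to 3′ on the gene's strand, with CpG dinucleotides in capitals, at chr15:50181946-50182245 on the plus strand for SLC27A2, chr19:58511943-58512242 on the minus strand for SLC27A5 and chrX:109733208-109733507 on the minus strand for ACSL4.
SLC27A2: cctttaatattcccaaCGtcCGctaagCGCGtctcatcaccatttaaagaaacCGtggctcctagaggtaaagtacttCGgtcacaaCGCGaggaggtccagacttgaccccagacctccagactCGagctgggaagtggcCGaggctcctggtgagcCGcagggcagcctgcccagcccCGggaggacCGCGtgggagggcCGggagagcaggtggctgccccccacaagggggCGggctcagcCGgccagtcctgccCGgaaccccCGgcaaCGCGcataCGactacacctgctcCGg
SLC27A5: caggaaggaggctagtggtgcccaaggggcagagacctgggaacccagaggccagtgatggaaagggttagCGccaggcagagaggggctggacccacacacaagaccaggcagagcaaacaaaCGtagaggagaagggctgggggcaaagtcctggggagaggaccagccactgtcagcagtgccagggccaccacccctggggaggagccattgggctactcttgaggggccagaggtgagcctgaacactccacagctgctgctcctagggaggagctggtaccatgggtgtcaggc
ACSL4: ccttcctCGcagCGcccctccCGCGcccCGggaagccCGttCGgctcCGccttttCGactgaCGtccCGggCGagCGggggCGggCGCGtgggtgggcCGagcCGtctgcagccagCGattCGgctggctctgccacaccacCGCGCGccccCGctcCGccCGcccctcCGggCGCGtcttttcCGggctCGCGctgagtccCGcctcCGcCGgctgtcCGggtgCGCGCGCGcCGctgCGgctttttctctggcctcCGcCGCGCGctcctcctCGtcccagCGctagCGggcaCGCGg
The SLC27A2 window held 23 CpG, a number reached by 35.6% of 27305 promoter windows of the same length, whose median was 14. The ACSL4 window held 51 CpG, which 1% of windows reached, and the SLC27A5 window held 2.

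All 10 genes had a window in the table, and the first listed was used where there were several, as for ACSL1, ACSL5 and ACSL6. CpG numbers ran from 2 in SLC27A5 to 51 in ACSL4. The genes that rose or were higher in both lines covered a wide span, with 23 CpG in SLC27A2, 47 in ACSL1 and 6 in ACSL6. The E-box CACGTG, bound by MYC family proteins, was searched on both strands and was in none of the 10 windows, and 7.43% of all windows hold it. GCGTG, a core of hypoxia response elements, was in the windows of SLC27A2, SLC27A3, ACSL1, ACSL3, ACSL4 and CPT1A, and 36.3% of all windows hold it. ACGTG, the other such core, which is also part of the E-box, was in none of them, against 21.6% of all windows. CCAAT was in those of SLC27A1, SLC27A5 and ACSL3, against 35.7% of all windows. A match describes these letters only and shows no binding.

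Among the other fatty acid transport proteins, SLC27A1 fell in both lines, SLC27A5 rose in KO2, and SLC27A3 was too low to test. SLC27A1, or FATP1, known from muscle and fat, stood at 0.864, 1.12 and 1.01 FPKM in KO1, 1.24, 0.954 and 0.685 FPKM in KO2 and 1.66, 1.83 and 1.72 FPKM in WT. Each edited library was below each WT library, and the edited lines overlapped. Against WT, the log2 change was -0.45 ± 0.11 in KO1 and -0.49 ± 0.11 in KO2 (limma adjusted p = 0.00379 and 0.00259). SLC27A1 reached 1 FPKM in 6 of 9 libraries, 3 of them WT.

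SLC27A5, which encodes the enzyme that activates bile acids in liver, stood at 4.03, 4.12 and 3.15 FPKM in KO1, 4.74, 5.34 and 4.50 FPKM in KO2 and 3.62, 3.82 and 3.94 FPKM in WT. KO1 spanned the whole WT range, while KO2 lay above both. The log2 fold change was -0.01 ± 0.09 in KO1 (limma adjusted p = 0.917) and 0.29 ± 0.09 in KO2 (adjusted p = 0.0189). The rise in KO2 did not pass without WT replicate 1 (adjusted p = 0.0524), without KO2 replicate 2 (0.0768) or after quantile normalization (0.11), with adjusted p between 0.00651 and 0.11 over 18 alternatives. The sign in KO1 turned without KO1 replicate 3 (0.08) or without WT replicate 3 (0.01).

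SLC27A3, a relative with acyl-CoA synthetase activity, stood at 0.203, 0.393 and 0.175 FPKM in KO1, 0.226, 0.485 and 0.597 FPKM in KO2 and 0.0313, 0.145 and 0.109 FPKM in WT. All edited libraries were above all WT libraries, at levels below 1 FPKM throughout. Its exons share 455 bases with INTS3 on the same strand in GENCODE 29, so its value is uncertain. With no filter on low values the log2 fold change was 0.20 ± 0.10 in KO1 (limma adjusted p = 0.161) and 0.38 ± 0.10 in KO2 (adjusted p = 0.0165).

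Summed over the family, and adding SLC27A4 and SLC27A6, fatty acid transport protein transcripts came to 29.4 to 30.9 FPKM in KO1, 30.4 to 31.7 FPKM in KO2 and 11.1 to 13.5 FPKM in WT. SLC27A2 made up 58.2 ± 6.2% of this sum in KO1, 40.2 ± 2.54% in KO2 and 5.23 ± 0.616% in WT (SD, n = 3 each), and this gene was the one chosen for its rise. SLC27A4, a widely expressed member, made up 25.2 ± 4.01% in KO1, 39.6 ± 2.36% in KO2 and 48.8 ± 2.68% in WT. SLC27A6 was listed at 0 in all 9 libraries. The sums of the edited lines lay within 3 FPKM of each other although their makeup differed, with SLC27A4 at 12.2 ± 0.766 FPKM in KO2 and 7.60 ± 1.08 FPKM in KO1 (log2 difference 0.63 ± 0.11, limma adjusted p = 0.00181).

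Among the long-chain acyl-CoA synthetases, ACSL6 and ACSL1 rose and ACSL4 fell in both lines, while ACSL3 fell in KO2. ACSL6, known from brain and from red cell precursors, showed the largest change of the family on the log2 scale in each line. It stood at 7.59, 8.34 and 8.46 FPKM in KO1, 10.0, 8.89 and 9.49 FPKM in KO2 and 3.09, 2.72 and 2.84 FPKM in WT. The edited libraries were all more than 2-fold above every WT library. Against WT, the log2 change was 1.23 ± 0.07 in KO1 and 1.43 ± 0.07 in KO2 (limma adjusted p = 9.43e-08 and 4.86e-08). All KO2 libraries were above all KO1 libraries, but the difference of 0.20 ± 0.07 did not pass (adjusted p = 0.0545). Leaving out WT replicate 1 made it pass (0.0431), as did moderation without a mean-variance trend (0.041), within a range of 0.041 to 0.178 over 19 alternatives.

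ACSL1, the main isozyme of fat, heart and liver, stood at 16.4, 16.7 and 18.9 FPKM in KO1, 19.8, 18.1 and 17.8 FPKM in KO2 and 12.5, 12.4 and 11.8 FPKM in WT. The edited lines overlapped each other and lay above WT. The log2 fold change was 0.47 ± 0.06 in KO1 and 0.57 ± 0.06 in KO2 (limma adjusted p = 8.25e-05 and 2.4e-05), and KO2 differed from KO1 by 0.10 ± 0.06 (adjusted p = 0.287).

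ACSL4 prefers arachidonic and other polyunsaturated fatty acids and is known for its part in ferroptosis, a death by lipid peroxidation. It stood at 15.1, 17.8 and 17.8 FPKM in KO1, 20.0, 19.8 and 18.6 FPKM in KO2 and 27.5, 24.6 and 25.6 FPKM in WT. No edited library reached the WT range, and KO1 was the lowest of the lines. Against WT, the log2 change was -0.59 ± 0.07 in KO1 and -0.39 ± 0.07 in KO2 (limma adjusted p = 2.29e-05 and 0.000492). KO2 was above KO1 by 0.20 ± 0.07, which did not pass (adjusted p = 0.0535). It passed without WT replicate 1 (0.0414) and among genes with 5 FPKM or more in 3 libraries (0.0495), within a range of 0.0414 to 0.158 over 19 alternatives.

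ACSL3, an isozyme of the endoplasmic reticulum and of growing lipid droplets, was the most abundant of the 10 genes. It stood at 38.3, 41.7 and 45.5 FPKM in KO1, 31.1, 30.4 and 31.4 FPKM in KO2 and 41.7, 36.3 and 36.0 FPKM in WT. KO2 lay below both other groups, while KO1 and WT overlapped. The log2 fold change in KO2 was -0.28 ± 0.07 (limma adjusted p = 0.00454). In KO1 it was 0.14 ± 0.07 and did not pass (adjusted p = 0.108). It passed there without KO1 replicate 1 (0.20, adjusted p = 0.0316) and without WT replicate 1 (0.20, adjusted p = 0.0164), with adjusted p between 0.0164 and 0.358 over 19 alternatives. The difference between the lines, KO2 minus KO1, was -0.42 ± 0.07 (adjusted p = 0.0013).

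ACSL5, a mitochondrial isozyme best known from the intestine, was listed at 0, 0.105 and 0.0515 FPKM in KO1, 0.0797, 0 and 0.0275 FPKM in KO2 and 0, 0 and 0.0268 FPKM in WT. At these levels the groups overlapped and no difference was detectable. Its exons share 144 bases with ZDHHC6 on the opposite strand in GENCODE 29, and the strand setting of the counting is not given in the sources used here.

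Summed over the 5 ACSL genes, the level was 77.4, 84.7 and 90.7 FPKM in KO1, 81.0, 77.2 and 77.4 FPKM in KO2 and 84.7, 76.0 and 76.3 FPKM in WT, so the 3 groups overlapped. The makeup of the sum differed between them. ACSL4 made up 20.1 ± 0.861% in KO1, 24.8 ± 0.806% in KO2 and 32.8 ± 0.711% in WT (SD, n = 3 each). ACSL1 made up 20.6 ± 0.738% in KO1, 23.7 ± 0.737% in KO2 and 15.5 ± 0.826% in WT. ACSL6 made up 9.66 ± 0.291% in KO1, 12.1 ± 0.476% in KO2 and 3.64 ± 0.0713% in WT. For these 3 genes the shares of no edited library fell within the WT range. ACSL3 made up 49.6 ± 0.482% in KO1, 39.4 ± 1.13% in KO2 and 48.1 ± 1.08% in WT, so that its share was lowest in KO2, while the ranges of KO1 and WT overlapped.

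**Figure D2:**
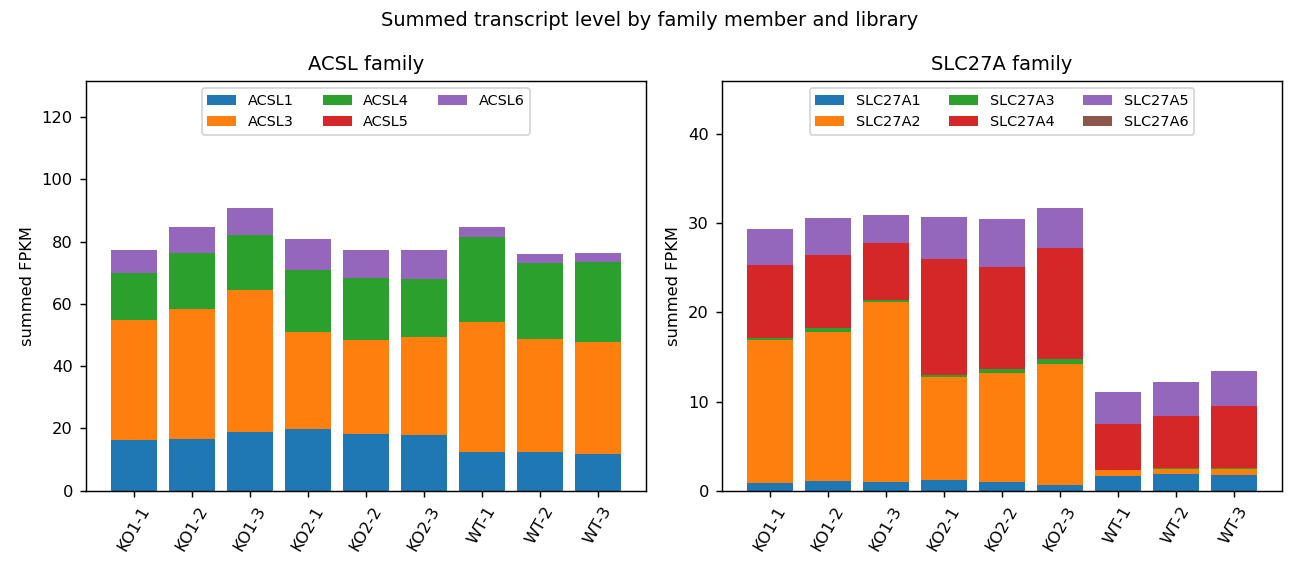
Summed FPKM (y axis, starting at 0) of the ACSL genes (left) and the SLC27A genes (right) in each library (x axis, group and replicate), with each gene's part of the bar in colour. ACSL sums overlap between groups at 76.0 to 90.7 FPKM with less ACSL4 and more ACSL6 and ACSL1 in the edited lines, and SLC27A sums are 29.4 to 31.7 FPKM in edited libraries and 11.1 to 13.5 FPKM in WT.

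CPT1A fell in both lines, and more in KO2. It stood at 32.6, 31.9 and 31.4 FPKM in KO1, 27.5, 26.8 and 28.0 FPKM in KO2 and 36.0, 35.5 and 33.8 FPKM in WT. The 3 groups did not overlap, with KO2 lowest and WT highest. The log2 fold change was -0.13 ± 0.04 in KO1 and -0.34 ± 0.04 in KO2 (limma adjusted p = 0.0165 and 3.56e-05), and KO2 minus KO1 was -0.21 ± 0.04 (adjusted p = 0.00327). The call in KO1 was lost without WT replicate 2 (adjusted p = 0.0517), with adjusted p between 0.00995 and 0.0517 over 19 alternatives.

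Of the 7 tested genes other than SLC27A2, KO1 had 2 rises and 3 falls, against a background of 67.5% of all tested genes that changed in that comparison, with 35.6% higher and 31.9% lower. KO2 had 3 rises and 4 falls, against a background of 64.7%, with 38.1% higher and 26.6% lower. The libraries of the edited line and of WT did not overlap for 5 of the 7 genes in KO1, against a background of 68.6%, and for all 7 in KO2, against 69.2%. Their median log2 fold change was -0.01 in KO1 and -0.28 in KO2, beside medians of 0.02 and 0.06 over all tested genes. The share of changed genes in KO1, 71.4%, was near that of the whole transcriptome, and in KO2 all 7 genes passed. Between the lines, 1 of the 8 tested genes, SLC27A5, was higher in KO2 than in KO1 and 3 were lower, SLC27A2, ACSL3 and CPT1A, against a background of 30.6%, with 18.3% higher and 12.4% lower. Libraries of KO2 and KO1 did not overlap for 6 of these 8 genes, against 47.4% of all tested genes. Both comparisons with WT use the same WT libraries.

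**Figure D3:**
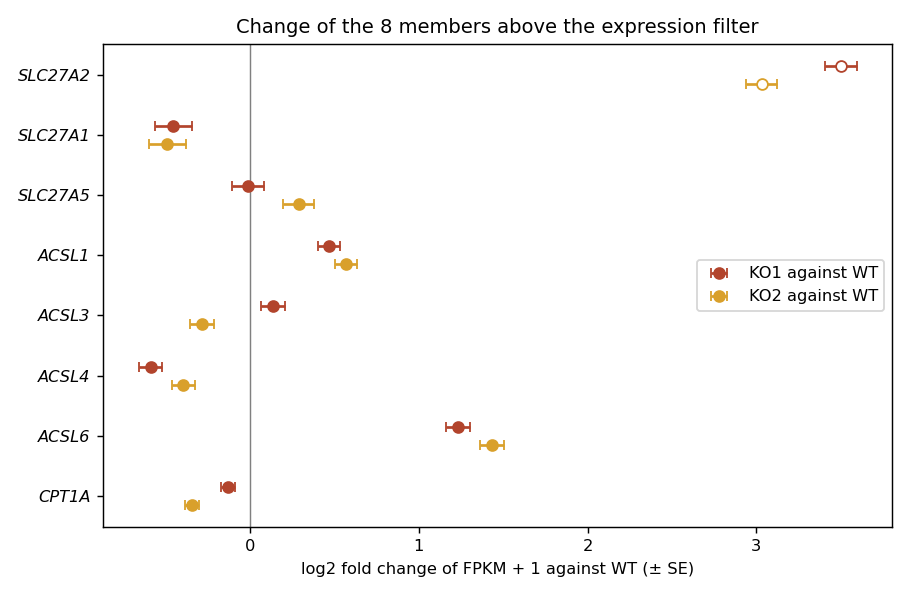
Log2 fold change of FPKM + 1 against WT (x axis, with SE bars) of the 8 genes that passed the expression filter (y axis), in KO1 and KO2. Open circles mark SLC27A2, which was chosen by these values and not tested, at 3.50 and 3.03; the other genes lie between -0.59 and 1.43, and ACSL3 and SLC27A5 have opposite signs in the 2 lines, neither passing in KO1.

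SLC27A2 lies on chromosome 15, and the genes next to it, ordered by RefSeq on GRCh38.p14 and used for order only, were described 5 to each side. HDC, which encodes the enzyme that makes histamine, is the next gene on one side and ATP8B4, a phospholipid-transporting ATPase gene, on the other. HDC stood at 5.01, 5.45 and 6.07 FPKM in KO1, 1.04, 1.72 and 1.15 FPKM in KO2 and 0.0296, 0.0329 and 0.0344 FPKM in WT. Like SLC27A2, it was below 1 FPKM in every WT library, and its KO2 libraries were all below its KO1 libraries. HDC passed the filter only through the edited lines, where it was high, so its log2 fold changes of 2.65 in KO1 and 1.14 in KO2 are given with no test. ATP8B4 did not pass the filter and stood at 0.983, 1.07 and 1.12 FPKM in KO1, 0.846, 0.912 and 0.822 FPKM in KO2 and 0.0261, 0.0152 and 0 FPKM in WT.

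One gene further out, GABPB1, which encodes a subunit of the transcription factor GABP, stood at 31.8 ± 1.05 FPKM in KO1, 24.0 ± 1.49 FPKM in KO2 and 13.95 ± 0.241 FPKM in WT (log2 fold change 1.13 ± 0.05 and 0.74 ± 0.05, limma adjusted p = 2.04e-08 and 6.64e-07). Its antisense neighbour GABPB1-AS1 fell, with a log2 fold change of -0.47 ± 0.09 in KO1 and -0.32 ± 0.09 in KO2 (adjusted p = 0.000919 and 0.00988), and reads of the pair cannot be told apart without strand. On the ATP8B4 side, DTWD1 rose by 0.39 ± 0.08 in KO1 and 0.24 ± 0.08 in KO2 on the log2 scale (adjusted p = 0.000995 and 0.0189), but the rise in KO2 did not pass under 4 of 19 alternatives (range of adjusted p 0.00118 to 0.0889), among them leaving out KO2 replicate 3 (0.0679), WT replicate 2 (0.0761) or WT replicate 3 (0.0562). At the ends, USP8 fell by 0.18 and 0.19 in KO1 and KO2 (adjusted p = 0.00981 and 0.00765). FAM227B had a log2 fold change of -0.16 in each line, which did not pass (adjusted p = 0.141 and 0.158). FGF7 was below 0.1 FPKM, and the microRNA genes MIR4716 and MIR4712 were listed at 0 in every library. The consecutive genes DTWD1, ATP8B4, SLC27A2, HDC and GABPB1, singled out after their values were seen, shared a pattern. Each was higher in all edited libraries than in any WT library and lower in all KO2 libraries than in any KO1 library. For DTWD1 the margin was small, with KO2 down to 8.47 FPKM and WT up to 8.34 FPKM. Such separation is common here for single genes. In either direction, libraries did not overlap between KO1 and WT for 68.6% of all tested genes. Between KO2 and WT the share was 69.2%, and between KO2 and KO1 it was 47.4%. ATP8B4 is not among the tested genes.

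**Figure D4:**
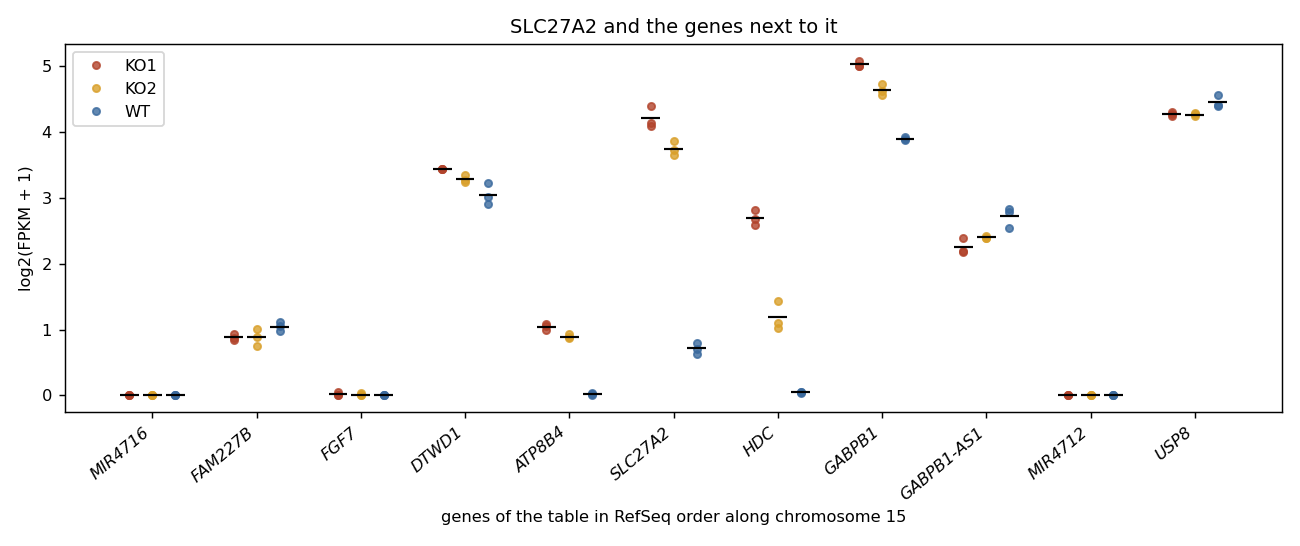
Level in log2(FPKM + 1) (y axis) of SLC27A2 and the 5 genes of the table on each side of it, in RefSeq order along chromosome 15 (x axis), for KO1, KO2 and WT; points are libraries and bars are means of 3. DTWD1, ATP8B4, SLC27A2, HDC and GABPB1, singled out after their values were seen, form an unbroken run with the edited libraries above WT. For DTWD1 the margin in KO2 is small. Of all tested genes, 68.6% in KO1 and 69.2% in KO2 did not overlap with WT, in either direction. USP8 and GABPB1-AS1 are lower in the edited lines.

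The genes whose pattern over the 9 libraries was most like that of SLC27A2 were found by the root mean square difference of log2(FPKM + 1) after each gene was centred on its WT mean. The closest were IGF2BP2, PTPRG, RASSF8 and DACH1, at differences of 0.173, 0.205, 0.207 and 0.247, and the naming rule set the fifth aside. Since they were chosen for this likeness, their levels are a description. IGF2BP2, an RNA-binding protein gene, stood at 14.005 ± 0.339 FPKM in KO1, 8.90 ± 0.247 FPKM in KO2 and 0.147 ± 0.159 FPKM in WT. PTPRG, a receptor phosphatase gene, stood at 10.6 ± 0.453 FPKM in KO1, 8.54 ± 0.265 FPKM in KO2 and 0.255 ± 0.00841 FPKM in WT. RASSF8 stood at 11.7 ± 1.7 FPKM in KO1, 5.90 ± 0.287 FPKM in KO2 and 0.0593 ± 0.0288 FPKM in WT. DACH1, a transcriptional regulator gene, stood at 7.91 ± 0.731 FPKM in KO1, 6.84 ± 0.263 FPKM in KO2 and 0.0213 ± 0.0247 FPKM in WT. As with SLC27A2, these 4 were lower on average in KO2 than in KO1.

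Other genes of fatty acid metabolism were taken from lists of genes by step, and each count stands beside the share of all tested genes that changed. Of 7 tested among 18 remaining acyl-CoA synthetases, KO1 had 6 falls and 1 rise and KO2 had 5 falls and 1 rise, where 31.9% and 26.6% of all tested genes were lower. The median log2 fold changes of the 7 were -0.29 and -0.21. ACSS2, which activates acetate, stood at 1.63 ± 0.258 FPKM in KO1, 3.11 ± 0.735 FPKM in KO2 and 5.70 ± 0.551 FPKM in WT. ACSF2, a mitochondrial family member, stood at 3.17 ± 0.381 FPKM in KO1, 2.79 ± 0.258 FPKM in KO2 and 7.13 ± 1.04 FPKM in WT. SLC27A4 was the one that rose, by 0.30 ± 0.11 in KO1 (limma adjusted p = 0.0342) and 0.93 ± 0.11 in KO2 (adjusted p = 3.32e-05). Its call in KO1, where its libraries overlapped those of WT, did not hold under 7 of 19 alternatives, and adjusted p over the 19 was between 0.00589 and 0.118. It was lost when KO1 replicate 1 (0.115), KO1 replicate 2 (0.116), WT replicate 1 (0.118) or WT replicate 2 (0.0784) was left out.

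Fatty acid binding and uptake genes gave 2 rises and 5 falls among 11 tested in KO1, and 2 rises and 6 falls in KO2. That is 63.6% and 72.7% changed, near the 67.5% and 64.7% of all tested genes. ACBD5, a peroxisomal acyl-CoA binding protein gene, fell to 9.37 ± 0.451 FPKM in KO1 and 9.82 ± 0.347 FPKM in KO2, against 13.9 ± 0.703 FPKM in WT (limma adjusted p = 1.7e-05 and 5.06e-05). FABP5, a fatty acid chaperone, rose to 85.4 ± 11.7 FPKM in KO1 and 82.7 ± 5.85 FPKM in KO2, against 47.5 ± 5.91 FPKM in WT (log2 fold change 0.83 ± 0.11 and 0.79 ± 0.11, limma adjusted p = 5.07e-05 and 8.48e-05). Thioesterases, which reverse activation by splitting acyl-CoA, gave 2 rises and 2 falls among 4 tested in each line. That is 100% changed in each, beside 67.5% and 64.7% of all tested genes, but 4 genes are too few for a comparison. One of the rises, ACOT11, passed the filter only through KO1, so the filter favoured its rise there. It stood at 1.44 ± 0.225 FPKM in KO1, 0.865 ± 0.0125 FPKM in KO2 and 0.239 ± 0.06 FPKM in WT. ACOT8, a peroxisomal one, fell to 6.72 ± 0.79 FPKM in KO1 and 8.59 ± 0.557 FPKM in KO2, against 12.3 ± 1.08 FPKM in WT (adjusted p = 1.86e-05 and 0.000902).

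Downstream of CPT1A, the carnitine shuttle gave 2 rises and 5 falls among 8 tested in KO1 and 2 rises and 2 falls in KO2. That is 87.5% and 50% changed, beside 67.5% and 64.7% of all tested genes. The rises in both lines were those of CPT2, the inner-membrane partner of CPT1A, and of SLC22A5, the carnitine importer. CPT2 stood at 16.4 ± 0.347 FPKM in KO1, 17.3 ± 0.799 FPKM in KO2 and 12.3 ± 0.569 FPKM in WT, the opposite direction to CPT1A (log2 fold change 0.38 ± 0.05 and 0.46 ± 0.05, limma adjusted p = 8.77e-05 and 2.7e-05). TMLHE, the first enzyme of carnitine synthesis, fell by 0.85 ± 0.12 in KO1 and 0.49 ± 0.12 in KO2 on the log2 scale (adjusted p = 9.94e-05 and 0.00445). Mitochondrial beta-oxidation genes gave 3 rises and 10 falls among 17 tested in KO1 and 4 rises and 8 falls in KO2, with medians of -0.23 and -0.09. The shares changed, 76.5% and 70.6%, were near the 67.5% and 64.7% of all tested genes. ETFB, which carries electrons from the oxidation enzymes, fell to 39.5 ± 4.05 FPKM in KO1 and 46.4 ± 1.14 FPKM in KO2, against 73.7 ± 1.6 FPKM in WT (adjusted p = 6e-07 and 7.87e-06).

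Peroxisomal genes, the usual company of very long chain synthetases such as SLC27A2, gave 3 rises and 12 falls among 20 tested in KO1 and 4 rises and 6 falls in KO2. The shares changed were 75% in KO1, against 67.5% of all tested genes, and 50% in KO2, against 64.7%. HACL1, an enzyme of alpha-oxidation, fell by 0.70 ± 0.09 in KO1 and 0.66 ± 0.09 in KO2 on the log2 scale (limma adjusted p = 4.1e-05 and 7.57e-05). Catalase (CAT), which removes hydrogen peroxide made by peroxisomal oxidation, rose to 52.2 ± 3.08 FPKM in KO1 and 69.5 ± 1.38 FPKM in KO2, against 44.6 ± 3.36 FPKM in WT (adjusted p = 0.0064 and 5.56e-06).

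Genes that make and lengthen fatty acids moved in both directions, with 8 rises and 10 falls among 24 tested in KO1 and 10 rises and 9 falls in KO2. The shares changed were 75% and 79.2%, beside 67.5% and 64.7% of all tested genes. ELOVL6, which extends palmitate, rose to 14.5 ± 0.851 FPKM in KO1 and 8.996 ± 0.855 FPKM in KO2, against 3.90 ± 0.767 FPKM in WT (limma adjusted p = 3.23e-07 and 1.55e-05). ELOVL5, an elongase of polyunsaturated fatty acids, fell to 223.9 ± 6.16 FPKM in KO1 and 184.0 ± 1.04 FPKM in KO2, against 308.1 ± 7.34 FPKM in WT (adjusted p = 6.27e-07 and 2.99e-08). ELOVL2, a further elongase of such fatty acids, stood at 2.56 ± 0.563 FPKM in KO1 and 0.224 ± 0.0136 FPKM in KO2 and was listed at 0 in all WT libraries. It is counted among the rises in both lines, but it passed the filter only through KO1, and its call in KO2 was lost under 9 of 18 alternatives.

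Genes of glycerolipid synthesis and lipid droplets, which use activated fatty acids, gave 14 rises and 7 falls among 25 tested in KO1 and 13 rises and 4 falls in KO2, where 35.6% and 38.1% of all tested genes were higher. The shares changed were 84% and 68%, beside 67.5% and 64.7% of all tested genes, and the medians were 0.25 and 0.17. MGLL, one of the 25, passed the filter only through the edited lines. It is counted among the rises in both lines, which the filter favoured, so its rise is no test. DGAT2, which makes triglyceride, rose to 6.59 ± 0.607 FPKM in KO1 and 7.43 ± 0.729 FPKM in KO2, against 2.31 ± 0.207 FPKM in WT (limma adjusted p = 6.62e-07 and 3.71e-07). AGPAT9 (GPAT3), which adds the first acyl chain to glycerol phosphate, rose to 14.9 ± 0.984 FPKM in KO1 and 6.68 ± 0.292 FPKM in KO2, against 3.92 ± 0.152 FPKM in WT (adjusted p = 5.55e-09 and 9.3e-06). The hypoxia-induced droplet protein gene HILPDA went the other way and fell to 14.9 ± 1.17 FPKM in KO1 and 18.5 ± 3.3 FPKM in KO2, against 66.5 ± 5.9 FPKM in WT (adjusted p = 5.54e-08 and 2.41e-07). Regulators of these pathways gave 4 rises and 5 falls among 19 tested in KO1 and 6 rises and 4 falls in KO2. That is 47.4% and 52.6% changed, below the 67.5% and 64.7% of all tested genes. PPARG, one of the 19, passed the filter only through the edited lines. It is counted among the rises in both lines, which the filter favoured, so its rise is no test either. INSIG1 and INSIG2 encode proteins that hold back the maturation of the sterol-regulated SREBP factors. INSIG1 fell to 157.1 ± 12.5 FPKM in KO1 and 174.0 ± 19.1 FPKM in KO2, against 385.4 ± 28.5 FPKM in WT (limma adjusted p = 2.92e-07 and 9.63e-07). INSIG2 fell to 13.7 ± 1.31 FPKM in KO1 and 10.6 ± 0.328 FPKM in KO2, against 30.2 ± 2.73 FPKM in WT (adjusted p = 5.82e-07 and 1.13e-07). RXRA, a nuclear receptor that pairs with the PPAR lipid sensors, rose to 5.72 ± 0.288 FPKM in KO1 and 7.16 ± 0.332 FPKM in KO2, against 2.51 ± 0.141 FPKM in WT (adjusted p = 5.28e-07 and 1.13e-07).

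**Figure D5:**
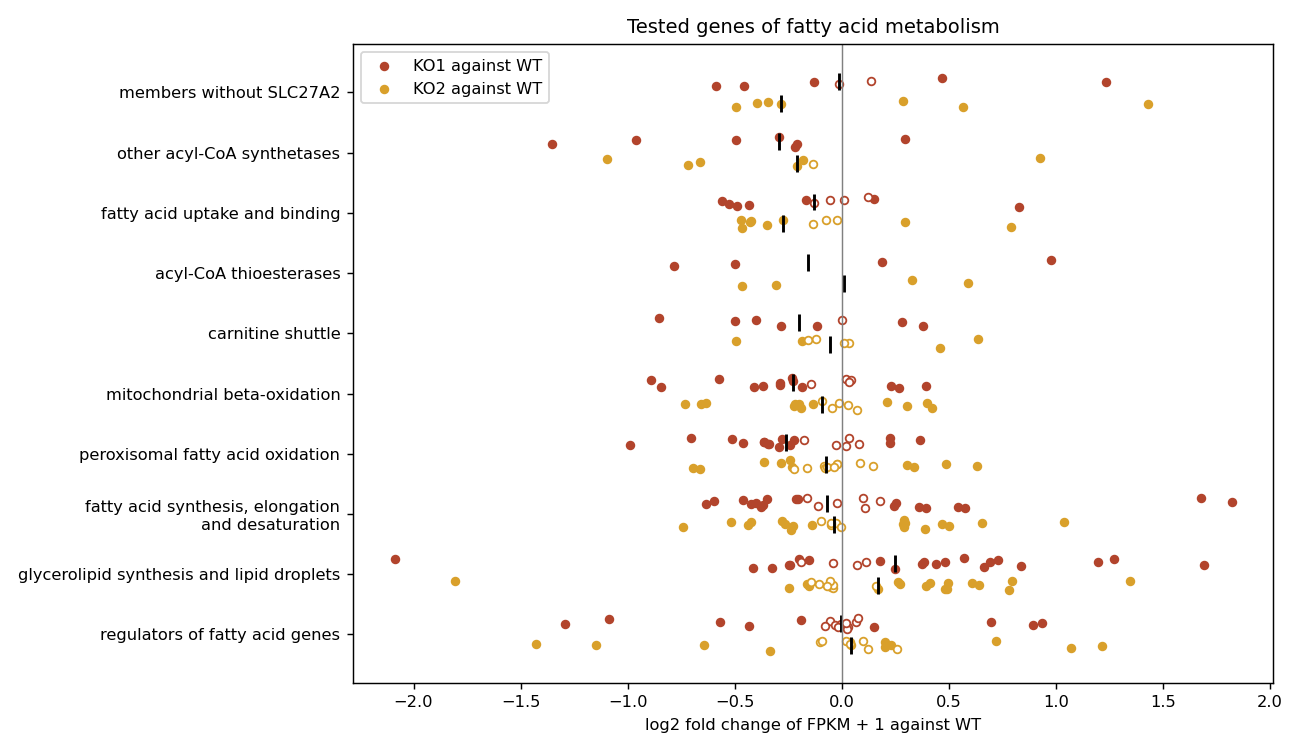
Log2 fold change of FPKM + 1 against WT (x axis) of every tested gene of each list (y axis) in KO1 and KO2; filled circles passed the limma test, open circles did not, and black bars are medians. Medians of the lists lie between -0.29 and 0.25, with glycerolipid and droplet genes highest at 0.25 in KO1 and 0.17 in KO2. SLC27A2 is left out. ACOT11, ELOVL2, MGLL and PPARG are drawn and enter the medians. They passed the filter only through edited libraries, so their filled circles are no test of a rise.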

How the data were processed

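Polyadenylated RNA of 9 Jurkat libraries was grouped by sample title into KO1, KO2 and WT. The authors deposited 1 table of FPKM with a column per library. The submitters' processing notes list Cufflinks 2.2.1, STAR 2.5.0b, bedtools 2.7.0 and hg19, with no role or order. The annotation, strand setting and scaling were not given in the sources used here. Text stood where values should be in 38 of 26228 lines, AGPAT1 and RXRB of the lists among them, and these lines were dropped. The libraries gave 0 pairs of identical columns.

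Since FPKM do not keep read numbers, limma 3.58.1 in R 4.3.3 was run on log2(FPKM + 1) of genes with at least 1 FPKM in 3 of 9 libraries, with 1 mean per group, trended empirical Bayes and no covariates. The p-values are two-sided and adjusted over all 11737 tested genes. The fit was tested on simulated data. The members and lists were chosen with earlier results of these data known. Named genes were the members, the 5 genes most like SLC27A2 (without MYCN), the 5 genes on each side of it, EZH2, and up to 3 genes per list with the largest change among those passing in both lines. Alternatives were other filters, pseudocounts, scalings and moderations, fits of only the groups compared, a stricter threshold, a replicate block, and leaving out each library.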

Additional observations from a re-analysis of the deposited data

Results flagged for a closer look

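The edited lines differed from each other in several of the genes named here, by limma's test of KO2 minus KO1 with an adjusted p under 0.05. Values are differences of log2(FPKM + 1), with n = 3 libraries each. Among the fatty acid activation genes the difference was -0.47 for SLC27A2, -0.42 for ACSL3, -0.21 for CPT1A and 0.30 for SLC27A5. The SLC27A5 call did not hold under 6 of 18 alternatives, with adjusted p between 0.0291 and 0.121, among them those without KO1 replicate 3 (0.105), KO2 replicate 1 (0.0679) or KO2 replicate 2 (0.121).

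Of the genes beside SLC27A2 on chromosome 15, HDC differed by -1.51 and GABPB1 by -0.39. Lower in KO2 than in KO1 were also AGPAT9 at -1.05, ELOVL6 at -0.64, INSIG2 at -0.34, PECR at -0.33, ELOVL5 at -0.28 and the targeted gene EZH2 at -0.24. Higher in KO2 were ACSS2 at 0.63, SLC27A4 at 0.63, CAT at 0.41, TMLHE at 0.36, SLC22A5 at 0.36, ACOT8 at 0.32, RXRA at 0.28 and ETFB at 0.23. Of these calls, that of TMLHE did not hold under 11 of 19 alternatives (range 0.0219 to 0.15), that of ACOT8 under 4 (0.0115 to 0.0734) and that of ETFB under 1 (0.0171 to 0.0707). Leaving out KO2 replicate 1, KO2 replicate 3, KO1 replicate 1, KO1 replicate 2, WT replicate 2 or WT replicate 3 ended the call of TMLHE (0.0607, 0.15, 0.122, 0.133, 0.0573 and 0.0524). For ACOT8 it was KO2 replicate 1, KO2 replicate 2, KO1 replicate 1 or KO1 replicate 3 (0.0693, 0.0734, 0.0711 and 0.0547), and for ETFB it was KO2 replicate 2 (0.0707).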

How the results depend on the processing

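Over all tested genes, 3596 changed between KO2 and KO1, and 2100 with an adjusted p under 0.01. Leaving out 1 library at a time gave 7339 to 7935 changed genes in KO1, 6869 to 7741 in KO2 and 2643 to 4081 between the lines. Of the 7 tested genes of fatty acid activation other than SLC27A2, 4 to 6 then changed in KO1 and 6 to 7 in KO2. Of the 8 with SLC27A2, 3 to 6 changed between the lines. In the full fit 67.5%, 64.7% and 30.6% of all tested genes changed in these comparisons. Correlations of same-numbered libraries ran from -0.287 to 0.318. For KO2 and WT they were 0.318, 0.033 and 0.232, each above the best with another number (-0.118, 0.003 and 0.077). For KO1 and WT each was below it, and KO1 and KO2 were mixed. Whether the numbers mark libraries handled together is not known. A replicate block left 5 of the 7 members changed in KO1, 7 of 7 in KO2 and 4 of the 8 between the lines. It ended the call of SLC27A4 in KO1 (limma adjusted p = 0.0618, range 0.00589 to 0.118). Signs turned for small differences only, none past the threshold. For KO2 minus KO1, HACL1 gave -0.00142 with quantile normalization and FAM227B -0.029 with median centring. Leaving out 1 library gave -0.14 to 0.067 for SLC27A1, -0.16 to 0.032 for FABP5, -0.16 to 0.23 for ACBD4, -0.038 to 0.12 for HACL1, -0.059 to 0.071 for FAM227B and -0.025 to 0.0061 for USP8. For KO1 against WT, SLC27A5 gave -0.067 to 0.084. The cause was not tested. SLC27A1 and SLC27A5 had no value with a filter at 5 FPKM. Depth in reads is unknown, and with 3 libraries of 1 line per edit, line and edit cannot be told apart.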
